A study of Mus musculus with 6 samples.

Results

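Transcripts of the Rab GTPases were measured by RNA sequencing in NIH3T3, an established line of mouse embryonic fibroblasts. The set is every gene of the deposited count table whose symbol is Rab followed by a number and at most a letter and a further digit, and it holds 56 of the 16000 genes listed. Effectors and regulators with longer symbols, such as Rab11fip1 and Rab3gap1, fall outside it and are given separately. The samples were 3 libraries labelled RAI16 KO (genotype Rai16 KO; called KO below) and 3 wild-type libraries (WT), all from serum-starved cells, and the comparison asked which transcripts differ when the gene is knocked out. The sources used here give neither how the knockout was made nor whether replicates are separate cultures or clones. A p-value below thus measures no more than the variation among the 6 libraries, and that may be technical.

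Rab proteins are small GTPases that give membranes their identity. In the GTP-bound state a Rab sits on a particular organelle and recruits effectors such as motors, tethers and kinases, and in the GDP-bound state it is drawn back into the cytosol by a GDP dissociation inhibitor. Exchange factors (GEFs) switch a Rab on, GTPase-activating proteins (GAPs) switch it off, and prenyl groups added by Rab geranylgeranyl transferase anchor it in the membrane. Fibroblasts use Rabs for secretion of matrix, for endocytosis and recycling of receptors and integrins, and, when serum is withdrawn, for building the primary cilium.

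Total counts ran from 17805417 to 18368760 in KO libraries and from 16741607 to 17482451 in WT libraries. Levels are given as CPM, counts scaled to a common library size by edgeR (TMM), and, where genes are compared with each other, as FPKM, which also divides by gene length. All 9 fibroblast markers examined were present, with summed levels of 19662 to 22791 CPM in KO and 23497 to 23947 CPM in WT libraries. Fn1, the largest of them, averaged 9196 CPM in KO and 13984 CPM in WT libraries. The median log2 fold change of the 9 was 0.15, so the lower KO sum does not describe each marker. Lists of 3 to 4 epithelial, leukocyte and endothelial markers in the table summed to 1.41 to 6.05 CPM in KO and 0.402 to 4.14 CPM in WT libraries, the sum of each list being higher in KO. Single markers went both ways. Among epithelial markers, for example, Krt8 averaged 4.35 CPM in KO and 1.05 CPM in WT, and Cdh1 0.367 CPM in KO and 0.620 CPM in WT. Neural markers, of the cells in which Rab3c and Rab6b are best known, summed to 3.04 to 4.47 CPM in KO and 5.23 to 6.42 CPM in WT libraries. Muscle markers summed to 0.169 to 26.6 CPM in KO and 0.520 to 0.719 CPM in WT libraries, and KO replicate 2 alone carried the high value. There Ckm, a creatine kinase of muscle, had 405 counts, against 0 in each of the other 5 libraries, and Des had 82 counts, against 8 and 3 in the other KO and 9 to 12 in WT libraries. The part of such cells in the Rab values was not tested. The targeted gene, listed as Fam160b2 (another symbol of Rai16), had 22.3, 21.5 and 21.96 CPM in KO replicates 1, 2 and 3, against 25.4, 22.5 and 23.6 CPM in WT replicates 1, 2 and 3. Its log2 fold change was −0.12 ± 0.075 (SE; adjusted p = 0.184), so the transcript count does not check the genotype, and the groups rest on the labels. KO replicate 2 stood apart from the other KO libraries. Its counts differed from theirs by a chi-square per degree of freedom of 26.5 and 28.6, where KO replicates 1 and 3 differed by 1.72 and WT pairs by 1.90 to 2.25.

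The members whose transcripts differed most were Rab6b, which was all but lost in KO libraries, and Rab3c, which was several times higher in them. Each has a close paralogue in the set, Rab6a and Rab3a. The 250 bases upstream of the start of these 4 genes are shown because the large changes and their paralogues can be compared there, as RefSeq gives them on GRCm38.p6. They lie at chr9:103111824-103112073 (plus strand) for Rab6b, chr7:100607336-100607585 (plus strand) for Rab6a, chr13:110280207-110280456 (minus strand) for Rab3c and chr8:70754453-70754702 (plus strand) for Rab3a. Each runs 5′ to 3′ on the strand of its gene, and capitals mark matches to the motifs described next.
Rab6b: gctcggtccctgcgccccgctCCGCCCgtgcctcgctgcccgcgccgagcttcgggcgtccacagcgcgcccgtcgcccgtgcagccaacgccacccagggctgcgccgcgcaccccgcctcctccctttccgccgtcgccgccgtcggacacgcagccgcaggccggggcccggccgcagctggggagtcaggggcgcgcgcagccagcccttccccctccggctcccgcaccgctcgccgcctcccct
Rab6a: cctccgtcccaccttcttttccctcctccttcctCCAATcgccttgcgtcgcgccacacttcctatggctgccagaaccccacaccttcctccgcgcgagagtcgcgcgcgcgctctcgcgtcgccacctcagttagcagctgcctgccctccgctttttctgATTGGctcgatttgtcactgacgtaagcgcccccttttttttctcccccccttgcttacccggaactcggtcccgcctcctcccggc
Rab3c: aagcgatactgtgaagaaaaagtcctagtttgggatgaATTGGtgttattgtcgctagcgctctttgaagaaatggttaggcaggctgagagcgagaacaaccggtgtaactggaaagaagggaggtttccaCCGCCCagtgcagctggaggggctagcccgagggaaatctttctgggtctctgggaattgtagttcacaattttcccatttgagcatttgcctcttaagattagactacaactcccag
Rab3a: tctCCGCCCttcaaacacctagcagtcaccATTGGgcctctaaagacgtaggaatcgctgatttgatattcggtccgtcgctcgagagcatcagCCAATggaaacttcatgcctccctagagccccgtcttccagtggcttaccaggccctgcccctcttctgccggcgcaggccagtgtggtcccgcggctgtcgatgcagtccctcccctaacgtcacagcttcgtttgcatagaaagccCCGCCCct

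A total of 5 motifs were searched on both strands, and matches to different motifs may overlap. The GC box (GGGCGG) was present in 67.4% of the 46 Rab promoters found in the RefSeq table, against 32.9% of 27025 promoters of the same length. The CCAAT box, whose name spells its letters, was present in 43.5% of the Rab promoters, against 34.5% of all. The TATA box (TATAAA) was present in 8.70% of the Rab promoters, against 13.0% of all. The E-box with the letters CACGTG was present in 8.70% of the Rab promoters, against 6.05% of all. The cAMP response element, searched as TGACGTCA, was present in 4.35% of the Rab promoters, against 1.62% of all. Of these motifs the 4 stretches shown hold GC and CCAAT boxes and none of the others. The Rab6b stretch holds 1 GC box, 0 CCAAT boxes and 40 CpG dinucleotides, the highest count among the Rab promoters and the percentile 98.9 of all promoters. The Rab6a stretch holds 0 GC boxes, 2 CCAAT boxes and 24 CpG. The Rab3c stretch holds 1 GC box, 1 CCAAT box and only 7 CpG, and the Rab3a stretch 2 GC boxes, 2 CCAAT boxes and 16 CpG. For Rab3a 2 promoters were listed and only 1 is shown, whereas Rab6b, Rab6a and Rab3c had 1 listed each. The median was 15.5 CpG over the Rab promoters and 6 over all promoters. These matches describe letters only.

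Of the 56 Rab genes 46 had enough reads to be tested, and 29 of them were called at a p under 0.05 in edgeR's quasi-likelihood test, adjusted over all genes by Benjamini and Hochberg. That is 63.0% of the tested members, beside 59.6% of all 11972 genes tested. A total of 19 members were higher in KO (background 30.5%) and 10 lower (background 29.2%). The median log2 fold change was 0.15 over the tested members and 0.0028 over all genes tested. In CPM, 36 of the 46 members showed no overlap between groups (background 67.6%), 23 with KO above (background 34.1%) and 13 with KO below WT (background 33.5%). Sizes were modest, with a median of 1.31-fold among called members and 1.42-fold among all called genes. Changes of at least 1.5-fold were called for 8 members (background 24.5%), 6 higher (background 10.8%) and 2 lower (background 13.7%). Changes of at least 2-fold were called for 3 (background 10.9%), Rab3c and Rab30 being higher (background 4.32%) and Rab6b lower (background 6.53%). In bulk RNA, fewer cells that express a gene and less RNA per cell cannot be told apart.

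**Figure D1:**
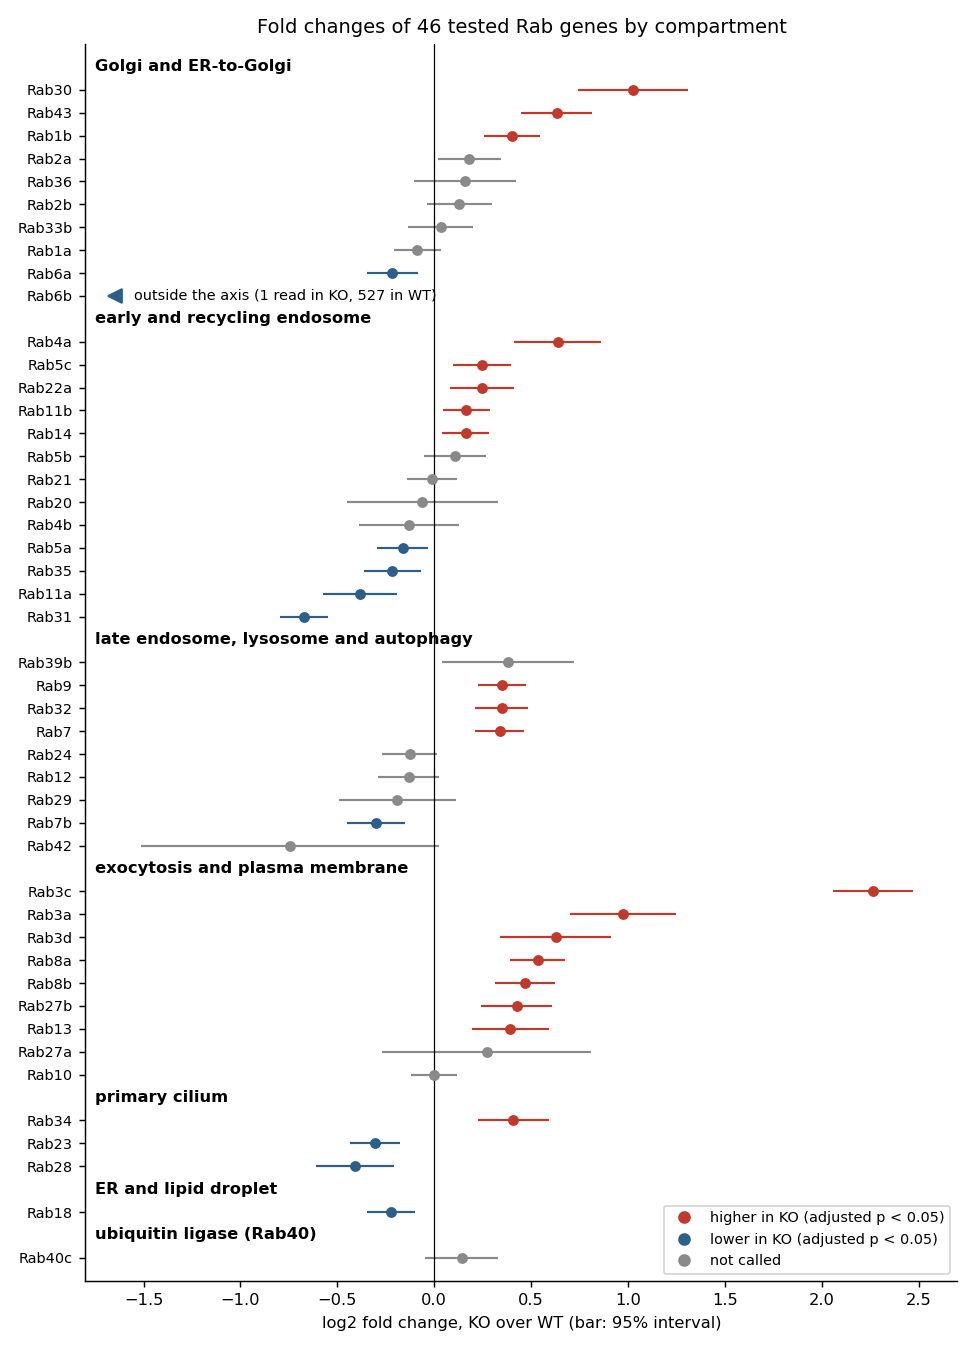
Log2 fold changes of KO over WT for the 46 tested Rab genes, grouped by the membrane each is best known for, with 95% intervals and colours for the call at an adjusted p under 0.05. The exocytic group holds 7 higher and 0 lower members, and Rab6b lies outside the axis with 1 read in KO and 527 in WT libraries.

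Among the Rabs of the Golgi and of transport between endoplasmic reticulum (ER) and Golgi, Rab6b had the most extreme change of the set. Rab6b (NCBI gene 270192), the Rab6 isoform enriched in neurons in mammals, had 1, 0 and 0 counts in KO replicates 1, 2 and 3, against 178, 144 and 205 counts in WT replicates 1, 2 and 3. In CPM these are 0.0543, 0 and 0 in KO and 10.3, 8.63 and 11.8 in WT libraries. The WT libraries carried the transcript at a modest level and the KO libraries were at the limit of counting. The ratio of KO to WT was 0.00179, with an exact 95% counting interval from 4.52e-05 to 0.0100 that covers counting error only. The test called the fall (adjusted p = 4.84e-07), and its fitted log2 fold change of −8.66 depends on the model's prior count and became −10.49 without KO replicate 1. Rab6b passed the filter on low counts through its WT libraries alone, the only tested member of which this holds. Rab6a, the widely expressed paralogue that drives transport from Golgi to ER and out of the Golgi, had 95.4, 89.5 and 96.3 CPM in KO replicates 1, 2 and 3, against 105, 112 and 109.7 CPM in WT replicates 1, 2 and 3. Every KO library lay below every WT library. Its log2 fold change was −0.22 ± 0.058 (adjusted p = 0.0104), and the call is lost without WT replicate 2 (adjusted p = 0.0519). Thus Rab6a was not higher where Rab6b was missing, and the summed Rab6 level was 28.3 ± 0.955 FPKM in KO and 33.9 ± 0.936 FPKM in WT libraries (SD, n = 3 each).

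Among the other Golgi Rabs, Rab30, Rab43 and Rab1b rose. Rab30 (gene 75985), a Rab of the Golgi stack, had 11.5, 11.2 and 13.4 CPM in KO replicates 1, 2 and 3, against 6.70, 5.52 and 5.52 CPM in WT replicates 1, 2 and 3. The groups did not overlap, and its log2 fold change was 1.02 ± 0.13 (adjusted p = 1.33e-04), just past 2-fold. It ranged from 0.94 to 1.12 as single libraries were left out and was under 2-fold without KO replicate 3 (0.94), WT replicate 2 (0.98) or WT replicate 3 (0.97). Without KO replicate 3 or WT replicate 2, 1 member is called higher at 2-fold, Rab3c. Rab43 (gene 69834), which acts between Golgi and ER, had 75.2, 62.2 and 66.4 CPM in KO replicates 1, 2 and 3, against 45.4, 41.4 and 44.7 CPM in WT replicates 1, 2 and 3. It rose by 0.63 ± 0.081 on the log2 scale (adjusted p = 1.73e-04), with no overlap of the groups. Of the Rabs that carry vesicles from the ER to the Golgi, Rab1b rose (116 ± 7.37 CPM in KO, 87.8 ± 2.46 CPM in WT; log2 fold change 0.40 ± 0.064, adjusted p = 6.26e-04) and Rab1a did not pass (−0.09 ± 0.054, adjusted p = 0.196). The remaining Golgi Rabs tested, Rab2a, Rab2b, Rab33b and Rab36, had log2 fold changes of 0.18, 0.13, 0.03 and 0.16, and none passed. In all, 3 Golgi members rose (background 30.5%) and 2 fell (background 29.2%) among 10 tested, which is near or under the share over all genes. Without KO replicate 2 the rises number 5, with Rab2a and Rab2b added, and the falls 3, with Rab1a added (−0.10, adjusted p = 0.0118). Without WT replicate 2 the falls number 1.

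Of the Rabs of early and recycling endosomes, 5 were higher (background 30.5%) and 4 lower (background 29.2%) among 13 tested, close to the shares over all genes. The largest fall of the group was Rab31 (gene 106572), also called Rab22b, which works between the trans-Golgi network and endosomes. It had 136, 138 and 144 CPM in KO replicates 1, 2 and 3, against 222, 217 and 227 CPM in WT replicates 1, 2 and 3, the groups lying far apart beside their spread. Its log2 fold change was −0.67 ± 0.055 (adjusted p = 1.13e-05). Its paralogue Rab22a, of the early endosome, had 57.5, 48.5 and 51.4 CPM in KO replicates 1, 2 and 3, against 43.6, 44.3 and 44.9 CPM in WT replicates 1, 2 and 3. It rose by 0.25 ± 0.073 on the log2 scale (adjusted p = 0.0167), and the call is lost without KO replicate 1 (0.0570), WT replicate 1 (0.0641) or WT replicate 2 (0.0555).

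Rab4a (gene 19341), which returns receptors quickly from early endosomes to the surface, had 22.7, 23.8 and 21.8 CPM in KO replicates 1, 2 and 3, against 12.7, 16.1 and 15.1 CPM in WT replicates 1, 2 and 3. Its log2 fold change was 0.64 ± 0.099 (adjusted p = 5.32e-04), with no overlap. Its paralogue Rab4b had 29.0, 38.1 and 28.4 CPM in KO replicates 1, 2 and 3, against 33.6, 37.3 and 33.8 CPM in WT replicates 1, 2 and 3. KO replicate 2 was the highest of the 6 libraries for Rab4b and the other KO libraries were the lowest. Rab4b did not pass with all libraries (−0.13 ± 0.11, adjusted p = 0.343) and was called lower without KO replicate 2 (−0.28, adjusted p = 3.35e-04). Rab11a, the main Rab of the recycling endosome, fell to 87.2 ± 10.2 CPM in KO, against 114 ± 4.24 CPM in WT (−0.38 ± 0.084, adjusted p = 0.00375). Rab11b was at 103 ± 2.69 CPM in KO and 91.6 ± 1.44 CPM in WT (0.17 ± 0.054, adjusted p = 0.0247).

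Transcripts of the Rab5 genes, whose products organise the early endosome, changed little. Rab5c, the most abundant of them per length, rose by 0.25 ± 0.067 on the log2 scale (adjusted p = 0.0106), and Rab5a fell by 0.16 on the same scale (SE 0.058, adjusted p = 0.0350). Rab5b did not pass with all libraries (0.11 ± 0.070, adjusted p = 0.212) and passed without KO replicate 2 (0.17, adjusted p = 2.23e-05). Rab14, which acts between Golgi and endosomes, rose by 0.16 ± 0.053, and Rab35, of recycling to the plasma membrane, fell by 0.22 (SE 0.065). Rab20 and Rab21 were not called, with log2 fold changes of −0.06 and −0.01. Small calls of this group depended on single libraries. Rab5c was lost without WT replicate 3 (adjusted p = 0.0526). Rab11b was lost with KO replicate 3 or any single WT replicate left out (0.0529 to 0.0922), and Rab35 without KO replicate 3, WT replicate 1 or WT replicate 3 (0.0582 to 0.0828). Rab5a and Rab14 were lost in every fit that left out a library other than KO replicate 2 (0.0527 to 0.122 for Rab5a, 0.0549 to 0.109 for Rab14). The rises of the group thus number 2 with any single WT replicate left out and 3 without KO replicate 1 or 3, and the falls 2 without KO replicate 3, WT replicate 1 or WT replicate 3.

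Of the Rabs of late endosomes, lysosomes and autophagy, 3 rose (background 30.5%) and 1 fell (background 29.2%) among 9 tested, the rises being near the share over all genes. Rab7 (gene 19349), which steers late endosomes to lysosomes, had 367, 385 and 359.5 CPM in KO replicates 1, 2 and 3, against 284, 293 and 302 CPM in WT replicates 1, 2 and 3. It was the most abundant member in all 6 libraries, and every KO library lay above every WT library (log2 fold change 0.34 ± 0.056, adjusted p = 8.11e-04). Rab9, which returns cargo from late endosomes to the trans-Golgi network, rose by 0.35 ± 0.055, and Rab32, of lysosome-related organelles, by 0.35 ± 0.060. Rab7b, a relative of Rab7 on late endosomes and the Golgi, fell to 59.8 ± 4.28 CPM in KO, against 73.6 ± 1.02 CPM in WT (−0.30 ± 0.066, adjusted p = 0.00364). Rab12, Rab24, Rab29, Rab39b and Rab42 were not called, with log2 fold changes from −0.75 for Rab42, which averaged only 0.624 CPM in KO and 1.05 CPM in WT, to 0.38 for Rab39b. Without KO replicate 2, Rab12 and Rab24 are called lower, giving 3 falls, and Rab39b is called higher.

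Of the Rabs of exocytosis and of transport to the plasma membrane, 7 of 9 tested rose (background 30.5%) and 0 fell (background 29.2%), and both counts held in each fit that left out a library. Rab10 and Rab27a were the members not called. The median log2 fold change of the 9 was 0.47. Rab3c (gene 67295), a Rab of regulated secretion known from synaptic vesicles, had 148, 121 and 148 CPM in KO replicates 1, 2 and 3, against 30.0, 29.1 and 27.9 CPM in WT replicates 1, 2 and 3. The lowest KO library held several times the level of any WT library. Its log2 fold change was 2.27 ± 0.091, a 4.81-fold difference (adjusted p = 1.87e-07). Rab3a (gene 19339), the Rab3 of synaptic vesicles, had 11.7, 14.1 and 12.6 CPM in KO replicates 1, 2 and 3, against 6.70, 5.76 and 7.07 CPM in WT replicates 1, 2 and 3. It rose by 0.97 ± 0.12 (adjusted p = 1.44e-04), with no overlap. Rab3d (gene 19340), known from secretory granules of exocrine cells, had 15.1, 12.6 and 11.3 CPM in KO replicates 1, 2 and 3, against 8.03, 8.21 and 9.02 CPM in WT replicates 1, 2 and 3. It rose by 0.63 ± 0.13 (adjusted p = 0.00244), also with no overlap.

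Rab8a and Rab8b, which carry post-Golgi vesicles to the plasma membrane and the ciliary base, rose together. Rab8a was at 93.8 ± 5.83 CPM in KO and 64.8 ± 0.754 CPM in WT (0.53 ± 0.062, adjusted p = 9.79e-05), and Rab8b at 40.4 ± 1.91 CPM in KO and 29.2 ± 1.33 CPM in WT (0.47 ± 0.068, adjusted p = 3.89e-04). Rab27b, of exosome and granule release, rose by 0.43 ± 0.081, and Rab13, of junctional and surface transport, by 0.39 ± 0.088. Rab10, a close relative of Rab8 and the most abundant Rab of the group, did not pass: it was at 198 ± 3.36 CPM in KO and 198 ± 4.45 CPM in WT, with a 95% interval of the log2 fold change from −0.12 to 0.12. Rab27a, the paralogue of Rab27b, had 31, 29 and 22 counts in KO replicates 1, 2 and 3, against 22, 18 and 24 counts in WT replicates 1, 2 and 3, and did not pass (adjusted p = 0.352).

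The 3 Rabs set apart here for their part in cilia went both ways. Rab34, which is needed for early steps of ciliogenesis in mouse fibroblasts, had 116, 139 and 115 CPM in KO replicates 1, 2 and 3, against 91.7, 92.1 and 95.4 CPM in WT replicates 1, 2 and 3. It rose by 0.41 ± 0.080 (adjusted p = 0.00206). Rab23, a negative regulator of Hedgehog signalling, fell to 52.3 ± 2.20 CPM in KO, against 64.7 ± 1.03 CPM in WT (−0.31 ± 0.057, adjusted p = 0.00158). Rab28, which turns over with intraflagellar transport, fell to 31.8 ± 2.75 CPM in KO, against 42.2 ± 3.71 CPM in WT (−0.41 ± 0.089, adjusted p = 0.00344). Of the members left, Rab18, of the ER and lipid droplets, fell by 0.23 (SE 0.055, adjusted p = 0.00651), and Rab40c, whose product joins a ubiquitin ligase, did not pass (0.14 ± 0.083, adjusted p = 0.167).

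**Figure D2:**
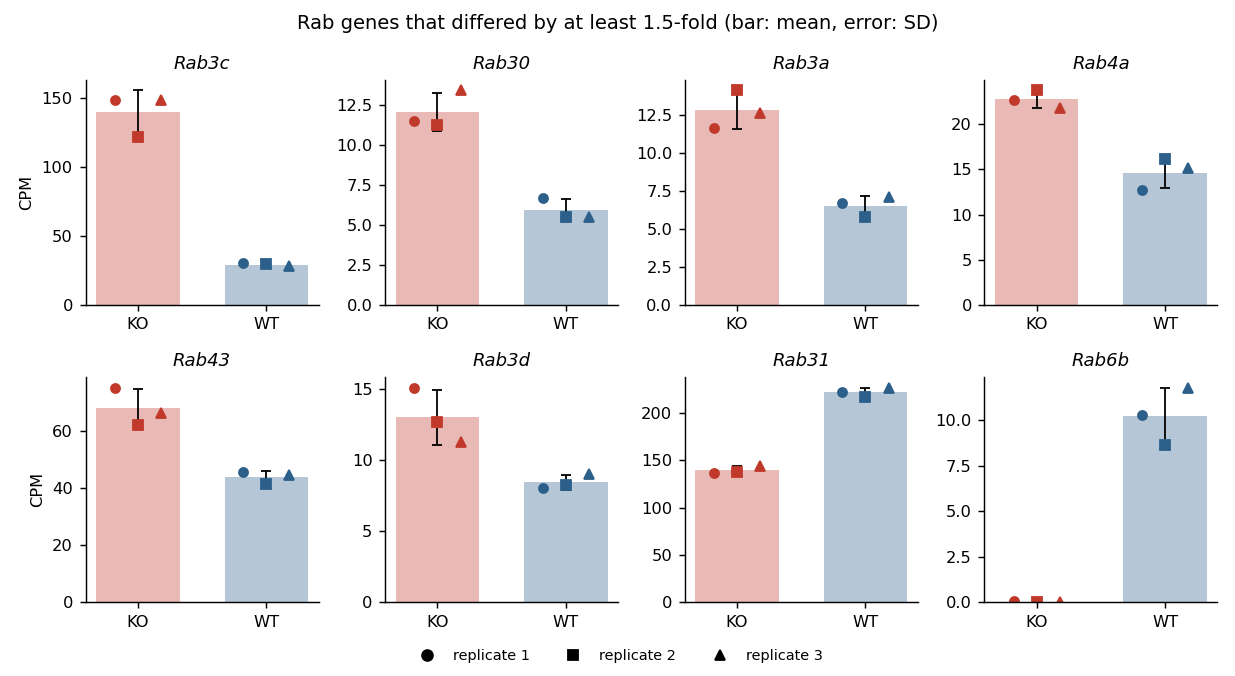
CPM of the 8 Rab genes called at 1.5-fold or more, with a point for each library (symbols mark replicates 1, 2 and 3), the mean as a bar and the SD as an error bar, KO left of WT. The groups overlap for none of the 8, and KO points of Rab6b lie at or near 0.

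The 10 members left untested were nearly silent, and counts are given in the order of replicates 1, 2 and 3. Rab15 had 12, 5 and 12 counts in KO, against 5, 1 and 9 in WT libraries. Rab33a had 4, 8 and 4 counts in KO, against 9, 10 and 7 in WT libraries, and Rab25, an epithelial Rab, 5, 0 and 3 in KO, against 7, 7 and 4 in WT libraries. These were the most read of the 10, and the groups overlap for each of them. Rab17, another epithelial Rab, had 3, 5 and 2 counts in KO, against 0, 0 and 1 in WT libraries. Rab37 had 5, 2 and 4 counts in KO, against 2, 0 and 2 in WT libraries. Rab19 had 4, 1 and 1 counts in KO, against 2, 1 and 0 in WT libraries. Rab3b, the Rab3 best known from endocrine cells, was barely read, with 3, 1 and 2 counts in KO and 0, 0 and 3 in WT libraries. Rab44 had 1, 0 and 2 counts in KO and none in WT libraries. Rab40b had none in KO libraries and 2 in WT replicate 2. Rab38, known from pigment cells, had none in KO libraries and 1 in WT replicate 3. For Rab17 the ratio of KO to WT was 9.42 with a counting interval from 1.34 to 409, and single counts cannot carry more than that.

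Per unit of length, Rab expression was spread over many genes. The 5 most abundant members by the mean of 6 libraries, Rab7, Rab5c, Rab34, Rab1a and Rab10, held 32.4% of the summed Rab FPKM in KO and 29.8% in WT libraries, and the 10 most abundant by that mean held 52.2% in KO and 51.7% in WT. Rab7 had 140.3, 148 and 137 FPKM in KO replicates 1, 2 and 3, against 108, 112 and 115 FPKM in WT replicates 1, 2 and 3, more than any other member in every library. Rab5c followed with 89.5, 94.1 and 80.2 FPKM in KO and 74.4, 74.2 and 72.0 FPKM in WT libraries, again clear of the next. Next by the mean of 6 libraries, Rab34 had 64.6, 77.8 and 63.5 FPKM in KO and 50.5, 50.8 and 52.6 FPKM in WT libraries. Below these the order depends on the group. Rab1a (54.4, 56.5 and 54.3 FPKM in KO; 58.7, 56.1 and 59.3 in WT) and Rab10 (57.0, 55.9 and 57.0 FPKM in KO; 57.2, 54.9 and 56.6 in WT) did not differ from each other beyond their spread. Both lay below Rab34 in KO and above it in WT libraries. The order within a group differed from that mean. Rab1b, at 63.5 ± 4.35 FPKM in KO and 47.6 ± 1.32 FPKM in WT, was above Rab1a and Rab10 in KO libraries. Rab31, at 39.97 ± 1.00 FPKM in KO and 63.2 ± 1.35 FPKM in WT, came next after Rab5c in WT libraries and far lower in KO libraries. Of the 56 members, 7 averaged over 50 FPKM, 12 between 1 and 10 and 14 under 1. FPKM rests on the length behind it, and Rab30 (36407 bases) and Rab2a (15329 bases) have very long entries, which lowers their FPKM relative to their CPM.

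**Figure D3:**
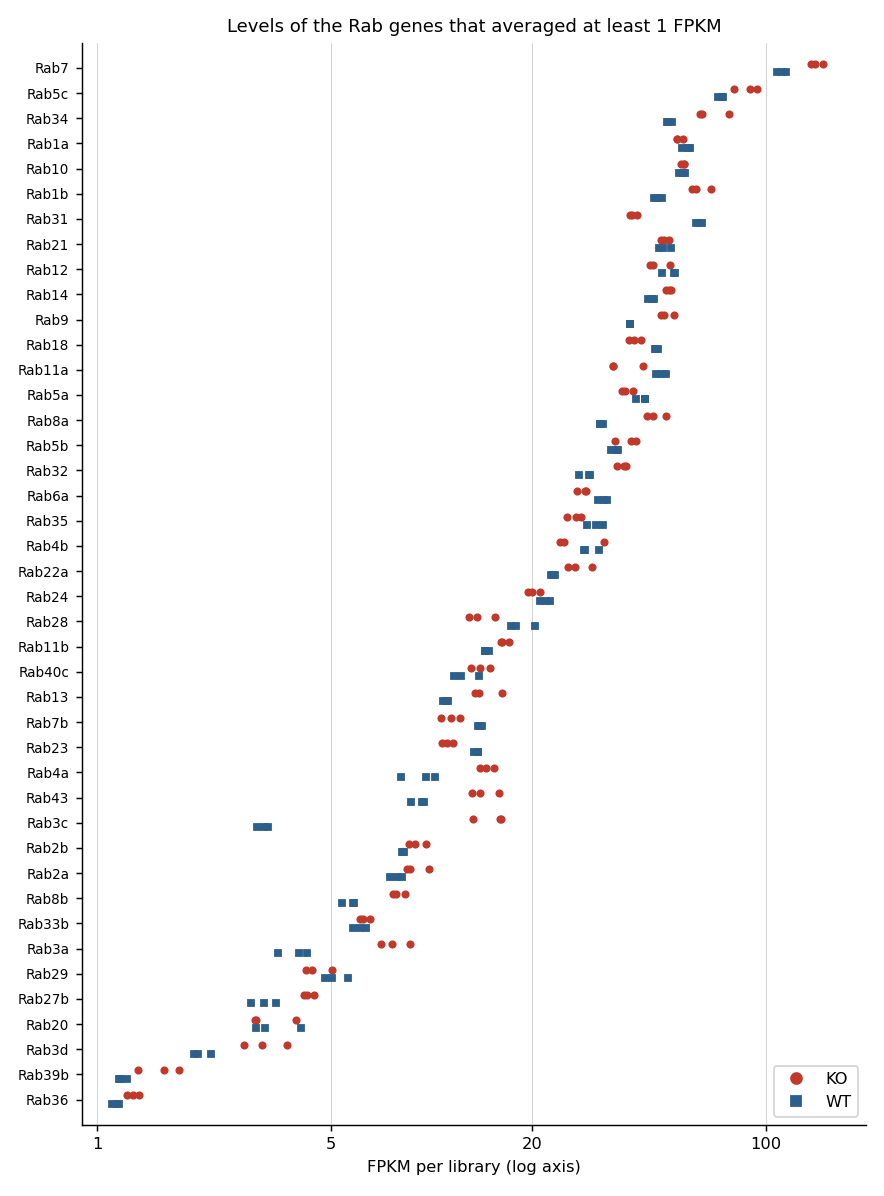
FPKM in each library on a log axis for the Rab genes that averaged at least 1 FPKM, ordered by the mean of 6 libraries, with KO above WT in each line. Rab7 leads in both groups, and Rab3c stands out by the distance between its KO and WT points.

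The summed level of all 56 Rab genes was 1251, 1319 and 1233 FPKM in KO replicates 1, 2 and 3, against 1172, 1172 and 1188 FPKM in WT replicates 1, 2 and 3. Every KO library lay above every WT library, by 7.67% in the mean (exact two-sided permutation test, p = 0.1, the smallest that 3 against 3 libraries allow). Summed FPKM of all genes was 374230, 421075 and 375935 in KO replicates 1, 2 and 3, against 365218 to 372467 in WT libraries. Only KO replicate 2 was far from the others. As a share of that sum over all genes, the Rab sum was 0.325% ± 0.0107 in KO and 0.319% ± 0.00355 in WT libraries (SD, n = 3 each, exact permutation p = 0.5). By library the share was 0.334%, 0.313% and 0.328% in KO replicates 1, 2 and 3, against 0.315%, 0.321% and 0.321% in WT replicates 1, 2 and 3. KO replicate 2 had the lowest share of all libraries, while KO replicates 1 and 3 lay above every WT library. By compartment, the exocytic sum was 155, 159.8 and 156 FPKM in KO, against 119, 115 and 119 FPKM in WT libraries, a ratio of 1.33 of the means. The late endosomal sum was 315 ± 11.6 FPKM in KO and 274 ± 0.673 FPKM in WT libraries, with no overlap. Rab7 weighs most in that sum, with a mean of 142 FPKM in KO and 111 FPKM in WT libraries. The median log2 fold change of the 9 tested late endosomal members was −0.13, so the sum does not describe each of them. The sum over early and recycling endosomes was 460.0 ± 17.2 FPKM in KO and 470.2 ± 4.24 FPKM in WT libraries, and there the groups overlapped, while in summed CPM they did not (1202 ± 21.9 in KO, 1250.0 ± 10.2 in WT).

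Shares within families of paralogues describe how the transcript level of a family is divided among its genes. A share was taken as the percent of the family's FPKM in a library, for 15 shares in 11 families with at least 2 tested members. The groups did not overlap for 11 of the 15. Each of those 11 has an exact two-sided permutation p of 0.1, the smallest possible with 3 against 3 libraries, and 0.136 adjusted over the 15, so none can pass the threshold. The sources do not say how reads shared by near-identical paralogues were counted, and shares of close pairs are uncertain to that extent.

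The Rab3 family changed its make-up most. Rab3c held 59.9%, 53.1% and 60.8% of Rab3 FPKM in KO replicates 1, 2 and 3, against 35.1%, 36.6% and 31.7% in WT replicates 1, 2 and 3. Rab3a held the largest share in WT libraries and Rab3c in KO libraries. Rab3a was at 29.8% ± 4.19 in KO and 42.9% ± 2.37 in WT, and Rab3d at 12.2% ± 1.68 in KO and 22.5% ± 1.14 in WT (SD, n = 3 each). All tested Rab3 members rose in CPM, so the lower shares of Rab3a and Rab3d stand beside higher levels, and the family sum was 26.2 ± 1.01 FPKM in KO and 9.11 ± 0.454 FPKM in WT libraries.

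Rab22a held 43.6%, 39.3% and 39.5% of the sum with Rab31 in KO replicates 1, 2 and 3, against 26.5%, 27.2% and 26.6% in WT replicates 1, 2 and 3. Rab31 stayed the larger part in all libraries. In the Rab4 pair, Rab4a held 35.1% ± 2.84 in KO and 23.9% ± 1.60 in WT. Rab1a held 46.5% ± 1.13 of the Rab1 pair in KO and 54.9% ± 1.08 in WT, so that Rab1b was the larger part in KO and Rab1a in WT libraries. Rab11a held 69.2% ± 1.99 of its family in KO and 76.5% ± 0.662 in WT. Rab7 held 92.5% ± 0.690 of the sum with Rab7b in KO and 88.8% ± 0.246 in WT. Rab6b held 0.0228%, 0% and 0% of the Rab6 pair in KO replicates 1, 2 and 3, against 3.77%, 3.01% and 4.13% in WT replicates 1, 2 and 3, so Rab6a supplied nearly all Rab6 transcript in both groups. Shares of Rab2a, Rab5b, Rab8a and Rab27a overlapped between the groups. Rab8a, for example, held 85.4% ± 1.33 of the Rab8 pair in KO and 84.9% ± 0.733 in WT while both paralogues rose.

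**Figure D4:**
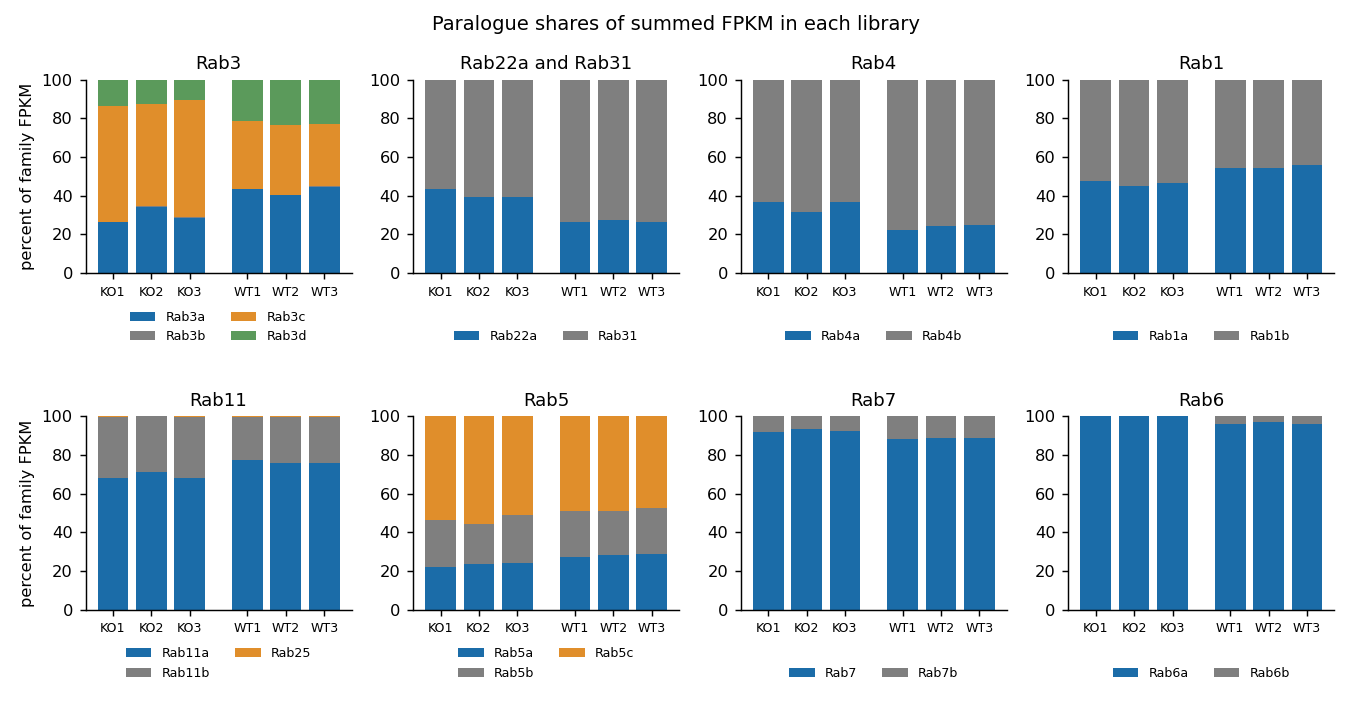
Share of each paralogue in the summed FPKM of its family, in percent, for 8 families and each of the 6 libraries, KO left of WT. Rab3c holds 53.1% to 60.8% of the Rab3 family in KO and 31.7% to 36.6% in WT libraries, and Rab6b disappears from the Rab6 pair in KO.

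KO replicate 2 also differed from the other KO libraries among the Rab genes, along gene length. Over the 45 tested members other than Rab6b, the log2 ratio of KO replicate 2 to the mean of KO replicates 1 and 3 had a Spearman correlation of −0.55 with length, and over 11523 genes with at least 10 counts in each KO library of −0.69. These are correlations across genes of the same libraries, given as a description. The median ratio was 0.12 (log2) for the 12 members under 2000 bases and −0.09 for the 12 members over 4000 bases. KO replicate 2 was the lowest KO library for Rab3c (9209 bases) and the highest for Rab34 (1806 bases) and Rab4b (1170 bases). Without it Rab3c had a log2 fold change of 2.36 and Rab34 of 0.32. Leaving this library out gives 37 called members, 23 higher and 14 lower, in place of 29. Calls over all genes rose as well in that fit, to 8586 in place of 7136. The part of gene length in the values of single members was not tested.

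**Figure D5:**
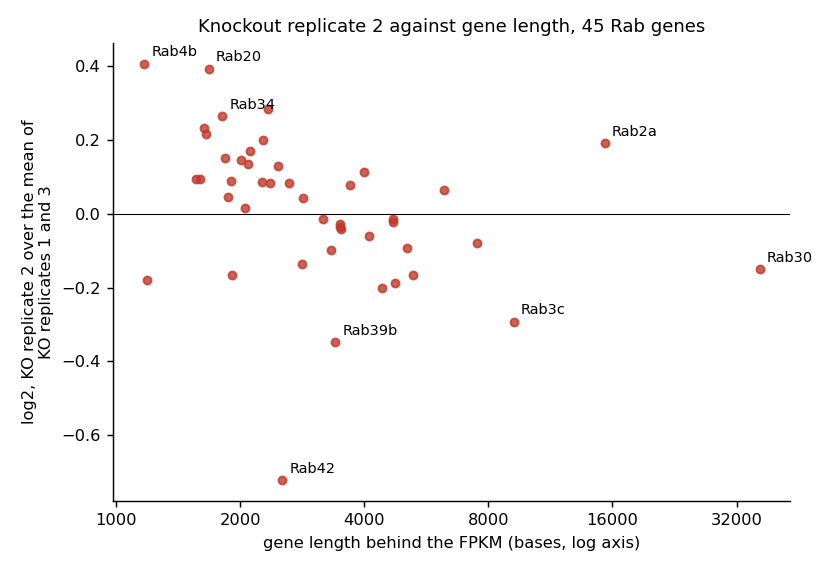
Log2 ratio of KO replicate 2 to the mean of KO replicates 1 and 3 in CPM, against the gene length behind the FPKM (log axis), with a point for each of 45 tested Rab genes. Rab4b, a short gene, lies above 0 and Rab3c, a long one, below it, but short and long genes lie on both sides of 0. Members under 2000 bases run from −0.18 to 0.41 and those over 4000 bases from −0.29 to 0.19. Rab42, with few counts, lies lowest at −0.72.

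Fold changes of all genes differed between chromosomes, and the Rab genes were set against their own chromosome. Gene order was taken from RefSeq on GRCm38.p6. On chromosome 8, 55.4% of 652 tested genes were higher in KO and 11.8% lower, and of its 4 tested Rab genes (Rab3a, Rab4a, Rab8a and Rab20) 3 were higher and 0 lower. On chromosome 1, 71.7% of 689 tested genes were lower and 5.66% higher, and of its 3 tested Rab genes Rab23 and Rab7b were lower and Rab29 was not called. Rab23 and Rab7b fell less than the median of their chromosome, with log2 fold changes of −0.31 and −0.30 beside a median of −0.49. Rab3c rose on chromosome 13, whose median is −0.29, and Rab8b and Rab3d rose on chromosome 9, whose median is −0.23. All 9 tested exocytic Rabs lay above the median of their own chromosome, Rab10 by only 0.04, and their median difference from it was 0.64. Of all 46 tested members, 30 lay above and 16 below. These differences were computed after the values were seen, and what part chromosome-wide shifts have in them was not tested.

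Around the 8 members called at 1.5-fold or more, the 10 nearest tested genes on each side were compared. The 20 neighbours of Rab3a had a median log2 fold change of 0.53, with 15 higher and 2 lower, and those of Rab4a a median of 0.42, with 17 higher and 1 lower. Rab43 had 11 higher and 1 lower neighbour, with a median of 0.26. The genes next to Rab31, Vapa and Ppp4r1, fell with it (−0.52 and −0.58), although the median of its 20 neighbours was −0.15. Rab6b also lay among genes that leaned lower, with a median of −0.16, 3 higher and 7 lower of 20, while the genes on either side, Slco2a1 and Srprb, were not called (−0.07 and −0.04). Rab30 and Rab3d, which rose, lay among genes with medians of −0.17 and −0.10. The neighbours of Rab3c had a median of −0.08, while the adjacent phosphodiesterase gene Pde4d rose by 1.11 (adjusted p = 6.17e-06) and Plk2, on the other side, was not called.

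Genes that load and switch Rabs were examined as a list of 130 genes in the table, of which 117 were tested. A total of 33 were higher (background 30.5%) and 37 lower (background 29.2%) in KO, and together they make up about the share called over all genes (59.6%). Unlike the Rab genes, the listed genes were not set against their own chromosome, and the part of chromosome-wide shifts in their values was not tested. A list of 8 genes held those for GDP dissociation inhibitors and prenylation, and also Rabif and Rabac1, which are neither. Of these 8 genes 6 fell (background 29.2%), Rabif and Rabac1 among them, and 1 rose (background 30.5%), with a median of −0.27. Rabggta, the alpha subunit of Rab geranylgeranyl transferase, had 14.3, 16.1 and 14.2 CPM in KO replicates 1, 2 and 3, against 31.6, 28.2 and 30.9 CPM in WT replicates 1, 2 and 3. It fell by 1.02 on the log2 scale (SE 0.085, adjusted p = 1.28e-05), whereas the beta subunit gene Rabggtb rose by 0.25 ± 0.085 (adjusted p = 0.0278), a call lost without WT replicate 2 (0.111) or WT replicate 3 (0.0898), and its log2 fold change is 0.16 without KO replicate 2. Rabif, a chaperone of nucleotide-free Rabs, fell to 16.6 ± 1.68 CPM in KO, against 27.7 ± 1.80 CPM in WT (−0.74 ± 0.094, adjusted p = 1.64e-04). Gdi2, a GDP dissociation inhibitor, fell by 0.26 (SE 0.069, adjusted p = 0.00975), and Rabac1, a Rab receptor of the Golgi, by 0.28 (SE 0.10, adjusted p = 0.0419), lost with any single library other than KO replicate 2 left out (0.0523 to 0.157). Without WT replicate 2 or WT replicate 3 the falls of this list number 3 and the rises 0.

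Of 30 tested GEF genes 7 rose (background 30.5%) and 9 fell (background 29.2%), with a median of −0.10, near or under the shares over all genes. Rab3ip, which encodes Rabin8, the exchange factor for Rab8 at the cilium, had 35.7, 36.2 and 33.6 CPM in KO replicates 1, 2 and 3, against 20.3, 19.5 and 21.9 CPM in WT replicates 1, 2 and 3. It rose by 0.77 ± 0.073 (adjusted p = 2.92e-05), and any link to the rises of Rab8a and Rab8b was not tested. Dennd3, Dennd6a and Rgp1, part of an exchange factor for Rab6, rose by 0.67 ± 0.17, 0.51 ± 0.096 and 0.38 ± 0.082. Dennd2a and Dennd4a, of the DENN family of exchange factors, fell by 0.96 (SE 0.060) and 0.76 (SE 0.15). The endosomal factor genes Rin2 and Ankrd27 fell by 0.29 (SE 0.051) and 0.27 (SE 0.064). Adjusted p over these 8 ran from 2.48e-06 to 0.00710. Below the level set for naming, and picked out after their values were seen, Rin3, a relative of Rin2, had 0 counts in all KO libraries, against 54, 38 and 47 in WT libraries. Dennd5b had 1, 0 and 4 counts in KO replicates 1, 2 and 3, against 47, 42 and 49 in WT replicates 1, 2 and 3. Rin3 and Dennd5b are among the 9 falls and passed the filter on low counts through their WT libraries alone.

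GAP genes counted 9 rises (background 30.5%) and 11 falls (background 29.2%) among 33 tested, near the shares over all genes, with a median of 0.07 and 14 rises without KO replicate 2. Tbc1d2 (Armus), a GAP for Rab7, had 29.3, 29.9 and 30.3 CPM in KO replicates 1, 2 and 3, against 10.6, 10.5 and 9.08 CPM in WT replicates 1, 2 and 3. It rose by 1.57 ± 0.084 (adjusted p = 9.55e-07), while its relative Tbc1d2b fell by 0.64 (SE 0.086, adjusted p = 2.21e-04). Tbc1d16, Evi5l and Sgsm2 rose by 0.89 ± 0.074, 0.82 ± 0.093 and 0.70 ± 0.062. Tbc1d4, the GAP of insulin-stimulated glucose transporter traffic, fell to 19.5 ± 2.03 CPM in KO, against 36.4 ± 0.806 CPM in WT (−0.90 ± 0.085, adjusted p = 2.78e-05). Tbc1d7 and Rabgap1l fell by 0.88 (SE 0.13) and 0.67 (SE 0.10). Rab3gap1 and Rab3gap2, the subunits of the GAP that switches off Rab3, fell by 0.31 (SE 0.071) and 0.52 (SE 0.060). They were named after their values were seen and were not set against their chromosome. Any link to the rises of the Rab3 genes was not tested.

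Effector genes counted 14 rises (background 30.5%) and 11 falls (background 29.2%) among 41 tested, near the shares over all genes, with a median of −0.05 and 9 rises without WT replicate 2 or WT replicate 3. Eea1, the tether that Rab5 recruits to early endosomes, had 123, 85.4 and 128 CPM in KO replicates 1, 2 and 3, against 224, 239.6 and 224 CPM in WT replicates 1, 2 and 3. It fell by 1.03 (SE 0.13, adjusted p = 1.83e-04), and KO replicate 2 was the lowest library. The Rab11 effector genes went both ways: Rab11fip1 and Rab11fip5 rose by 0.85 ± 0.087 and 0.61 ± 0.072, and Rab11fip2 fell by 0.48 (SE 0.098). Kif20a, a kinesin first known as a Rab6 partner and also a mitotic gene, rose by 0.64 ± 0.056, and Rufy1, of Rab4 and Rab14 endosomes, by 0.58 ± 0.078. Mical1, which oxidises actin, fell by 0.76 (SE 0.099), and the motor gene Myo5a by 0.44 (SE 0.14, adjusted p = 0.0248), lost with any single WT replicate left out (0.0634 to 0.0764). Myo5a was lowest in KO replicate 2 (251, 165 and 252 CPM in KO replicates 1, 2 and 3), and its log2 fold change is −0.26 without that library. Among low-level effectors picked out after their values were seen, Sytl2, of Rab27-dependent secretion, had 9, 13 and 10 counts in KO replicates 1, 2 and 3, against 159, 120 and 152 in WT replicates 1, 2 and 3. Rims2, an effector of Rab3 at release sites, had 30, 19 and 14 counts in KO and 0, 2 and 7 in WT libraries. Rims2 is among the 14 rises and passed the filter on low counts through its KO libraries alone. Among 5 tested Rab-like genes 2 rose, Rabl6 by 0.20 ± 0.064 and Ift22 by 0.30 ± 0.084 (background 30.5%), and 0 fell (background 29.2%). With any single WT replicate left out, 1 of these rises was called.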

How the data were processed

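Per the labels' protocols, RNA taken up in TRIzol was made into polyadenylated, stranded libraries (TruSeq). The genome build is GRCm39 and the tools named are HISAT2, HTSeq, Cufflinks, DESeq and Trimmomatic, per the submitters' processing notes. The sources used here give no versions, annotation or strand setting, so reads of a gene and an antisense partner cannot be told apart. The authors deposited whole-number counts per gene and FPKM, the latter equal to the count over the library total and a fixed length per gene (largest deviation 8.04e-05%). There are 0 columns of other samples.

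Counts were filtered (filterByExpr, 11972 of 16000 genes), TMM-scaled and tested with edgeR 4.0.16 (quasi-likelihood, R 4.3.3) over all genes. SE is the absolute log2 fold change over the square root of F. The precision is set by the depths given above and by 3 libraries per group. Alternatives were size factors, DESeq2 1.42.0, no filter, a replicate block and leaving out each library. Named were members called at 1.5-fold or more with their paralogues, the 5 most abundant, untested members, and, per regulator role, up to 4 rises and 4 falls with a mean of at least 5 CPM. Members and lists were chosen with earlier results of these data known. Permutation tests used scipy 1.17.1.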

Additional observations from a re-analysis of the deposited data

How the results depend on the processing

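Size factors and DESeq2 changed no call among the 46 tested Rab genes, and both gave 29. The count was 28 without a filter (Rab5a lost) and ran from 24 to 37 as single libraries were left out. Calls over all genes moved too, from 7136 in the main fit to 7223 without a filter and 6692 with the replicate block. They ran from 6048 to 8586 as single libraries were left out. Rab genes called higher at 2-fold or more ran from 1 to 3 in those fits. Gene by gene, direction turned only where the value was near 0 and not called: Rab10 (−0.0197 to 0.0146, and 0.00357 without a filter), Rab20 (−0.204 to 0.0846), Rab21 (−0.0344 to 0.0208) and Rab33b (−0.00121 to 0.0651). Likewise the differences in share, in percentage points, ran from −0.785 to 1.30 for Rab5b, from −0.977 to 2.49 for Rab2a and from −0.114 to 1.21 for Rab8a, and no other share turned in those fits or with raw counts. The ratio of the summed Rab level was 1.07 in CPM and 1.05 to 1.09 with a library left out. The sources used here do not say whether same-numbered libraries are paired. Their deviations from the group means correlated at −0.07, −0.09 and 0.02, and those of differently numbered libraries at −0.08 to 0.11. So few values, with KO replicate 2 standing apart, cannot decide whether the libraries are paired. With the replicate block 26 Rab genes were called, Rab11b, Rab14 and Rab5a being lost (adjusted p = 0.0650, 0.0773 and 0.0690), which left 3 rises in place of 5 among early and recycling endosome Rabs. Rabggtb was lost too (0.0564). The cause was not tested. Depth limits Rab42 and the 10 untested members.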
